A study of Mus musculus with 18 samples.

Results

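Small RNA from BV-2 cells that had received cannabidiol (CBD) before lipopolysaccharide (LPS) was compared with small RNA from BV-2 cells that had received tetrahydrocannabinol (THC) before LPS. The samples were taken by their treatment labels: 3 samples labelled CBD_LPS (numbered 26, 32 and 38) and 3 labelled THC_LPS (27, 33 and 39), 6 of 18 samples in all. BV-2 is an immortalized mouse microglial line, so every sample came from the same kind of cell. By the study's methods, cells received 10 μM of either cannabinoid for 2 h, and 100 ng/ml LPS was then added for 4 h. The other 12 samples were untreated control cells (Ctrl), cells given LPS alone, and cells given CBD or THC alone, 3 samples each. Both cannabinoids were dissolved in ethanol, and the labels do not say whether the LPS and Ctrl cells received that vehicle. Features with at least 10 reads summed over the 18 samples were analysed: 1363 of the 2134 deposited, namely 642 of 855 hairpins and 721 of 1279 mature miRNAs. Names with a small r (mir-1188) are hairpin precursors, and names with a capital R (miR-155-5p) are mature strands cut from the 5′ or 3′ arm of a hairpin.

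A mature miRNA guides a silencing complex to messenger RNAs through its seed, bases 2 to 8, so that miRNAs with the same seed share many predicted targets. In microglia and macrophages LPS acts through a Toll-like receptor (TLR) and NF-κB, and it induces a well-known set of miRNAs, among them miR-155, miR-146a and miR-21. CBD and THC are isomers from the cannabis plant: in THC a ring is closed through an oxygen, and in CBD the same ring is open and the oxygen is a free hydroxyl group. THC activates the cannabinoid receptors CB1 and CB2, for which CBD has low affinity. The comparison asked, at the same concentration and times, whether LPS-treated cells hold different miRNAs after these 2 isomers.

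The sequences below belong to the features on which the results turn, and they are printed from RefSeq on mouse build GRCm38.p6. In the mature miRNAs the seed is in capitals.

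miR-7a-2-3p: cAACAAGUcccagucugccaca
miR-7a-1-3p: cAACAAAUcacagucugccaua
miR-7a-5p: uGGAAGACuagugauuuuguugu
miR-3968: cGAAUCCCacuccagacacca
miR-92a-1-5p: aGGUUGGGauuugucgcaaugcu
miR-92a-3p: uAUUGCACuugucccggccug
miR-10b-5p: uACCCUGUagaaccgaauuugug
miR-10a-5p: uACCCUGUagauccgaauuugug
miR-155-5p: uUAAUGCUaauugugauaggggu
miR-146a-5p: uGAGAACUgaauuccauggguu
miR-146b-5p: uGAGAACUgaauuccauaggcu

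miR-7a-2-3p lies at chr7:78888335-78888356 on the plus strand, where no GENCODE gene of another kind overlaps it. The other star strand of the family, miR-7a-1-3p, lies at chr13:58392800-58392821 on the minus strand, inside an intron of Hnrnpk, and has a different seed. Both hairpins give the same 5p strand, miR-7a-5p. miR-10b-5p lies at chr2:74726074-74726096, in introns of Hoxd3 and Hoxd4, and shares its seed with miR-10a-5p. miR-155-5p lies at chr16:84714143-84714165, in an exon of the noncoding host gene Mir155hg. The 2 hairpins below are shown because mir-1188 was among the features called and mir-5099 was the most abundant feature at a small p. Capitals mark the annotated mature arms of mir-1188.

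mir-1188: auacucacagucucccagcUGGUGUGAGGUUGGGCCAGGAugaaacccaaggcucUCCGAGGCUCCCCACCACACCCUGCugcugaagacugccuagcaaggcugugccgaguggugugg
mir-5099: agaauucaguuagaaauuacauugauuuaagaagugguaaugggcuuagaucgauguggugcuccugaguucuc

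mir-1188 lies at chr12:109611822-109611941 on the plus strand, in an intron of the noncoding gene Rian, which belongs to the imprinted Dlk1-Dio3 region. mir-5099 lies at chr12:36816205-36816278 on the plus strand.

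The 6 samples held 539785 to 978251 reads assigned to miRNA features. In them 3 reads were worth 3.38 to 5.33 CPM (reads scaled by normalized, TMM-scaled library size, the unit of all levels here). Samples 26 and 27 stood apart from the other samples of their groups. They belong to the lowest-numbered set of 6, samples 22 to 27, which holds 1 sample of every group, and that set differed from later samples in other groups too: miR-181a-5p measured 14622 CPM in LPS sample 23 against 49125 and 45646 CPM in samples 29 and 35, and 12026 CPM in THC sample 25 against 45012 and 44585 CPM in samples 31 and 37. Among Ctrl samples it was 21865, 45953 and 22853 CPM, so sample 34 lay with sample 22. The labels name no batch. The chi-square of the read counts per degree of freedom was 83.2 and 94.8 for sample 26 against samples 32 and 38, but 6.02 between samples 32 and 38. It was 67.6 and 74.6 for sample 27 against samples 33 and 39, but 3.49 between samples 33 and 39. Samples 26 and 27 also differed from each other in the share of reads from 3 abundant hairpins (mir-6236, mir-6243 and mir-6240), which was 2.78% in sample 26 and 0.361% in sample 27, against 1.20% to 2.43% in the other 4. The main results are therefore also given without samples 26 and 27. The blood-lineage markers miR-142-5p, miR-142-3p, miR-223-3p and miR-150-5p summed to 9440 to 10903 CPM in the CBD+LPS samples and to 10057 to 10816 CPM in the THC+LPS samples. Of the marker lists of other cell types, epithelial miRNAs summed to 5680 to 8565 CPM, nearly all of it miR-141-3p at a mean of 7261 CPM. Endothelial miRNAs summed to 375 to 687 CPM and neuronal miRNAs to 420 to 574 CPM. Those of smooth muscle and fibroblasts summed to 143 to 240 CPM, and those of oligodendrocytes to 46.2 to 119 CPM. Muscle miRNAs reached at most 3.44 CPM, red cell miRNAs at most 1.33 CPM, and liver miR-122-5p had too few reads to be tested. None of the marker lists held a called feature (0.147% of all features were called). The labels do not say that the samples of a group were separate cultures, so p-values measure only the spread between these samples. In bulk RNA, fewer cells holding a miRNA and less of it per cell cannot be told apart.

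Few miRNA features differed between LPS-treated cells that had received CBD and those that had received THC. Of 1363 features, 2 were called, meaning an unadjusted p of at most 0.005 with at least a 1.5-fold difference in limma on log2(CPM + 1), and both were higher with CBD+LPS (0.147% of features). None was called lower with CBD+LPS. No feature reached a Benjamini-Hochberg adjusted p of 0.1 (0%), while 36 stood at 0.05 or less before adjustment (2.64%), 18 in each direction. With reads in place of CPM, the quasi-likelihood test of edgeR called 1 feature (0.0734%) and DESeq2 called 0, and no feature passed an adjusted p of 0.1 in either. In 37 features every CBD+LPS sample lay above every THC+LPS sample (2.71%), and in 52 every CBD+LPS sample lay below (3.82%). Without samples 26 and 27 a single feature was called (0.0734%), the hairpin mir-3094, which was lower after CBD (log2 difference -2.33, limma adjusted p = 1). The fit to samples 28 to 39 alone, which leaves out the lowest-numbered sample of every group, called mir-3094 and mir-181c (0.147%), both lower after CBD. The median difference over all features was -0.02 on the log2 scale.

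**Figure D1:**
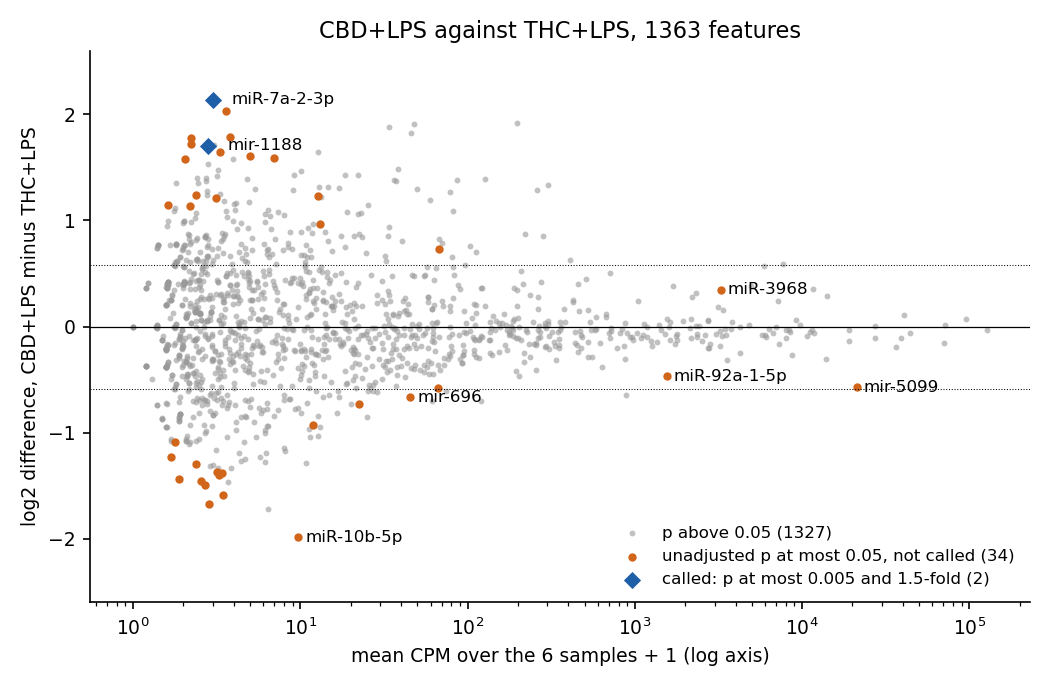
Each point is a feature, with the mean CPM over the 6 samples plus 1 on the x axis (log scale) and the log2 difference, CBD+LPS minus THC+LPS, on the y axis. Dotted lines mark 1.5-fold. The 2 called features, miR-7a-2-3p and mir-1188, sit at means under 10 CPM, and the spread of the points narrows toward high levels.

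Both called features were at the edge of detection. miR-7a-2-3p, the 3p strand of the second miR-7a hairpin, had 6, 3 and 1 reads in CBD+LPS samples 26, 32 and 38 and 0 reads in all 3 THC+LPS samples. The CBD+LPS samples were all above the THC+LPS samples, the closest by a single read. On the log2(CPM + 1) scale the difference was 2.14 ± 0.58 (SE; 95% interval 0.92 to 3.36; limma adjusted p = 1). Summed over each group there were 10 reads against 0, and the exact 95% interval of the ratio, which covers counting error only, began at 2.07-fold. The difference was 1.73 without samples 26 and 27, no longer a call, and the call was also lost when any of samples 26, 27, 32, 33 and 39 alone was left out (1.73 to 2.14).

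The other products of the miR-7a genes were not called. The shared guide strand miR-7a-5p measured 114, 81.0 and 114 CPM in the CBD+LPS samples and 160, 85.1 and 98.6 CPM in the THC+LPS samples, a log2 difference of -0.12 (95% interval -0.89 to 0.66). miR-7a-1-3p differed by 0.01 (interval -0.75 to 0.77). The mir-7a-2 hairpin itself had 0 or 1 read in every one of the 6 samples. In cells without LPS miR-7a-2-3p had 3, 1 and 2 reads after CBD, 1, 2 and 0 reads after THC, and 0 or 1 read in each Ctrl and LPS sample. The difference between CBD and THC was 1.08 there, and its change with LPS was 1.06, not a call.

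The mir-1188 hairpin had 3, 3 and 2 reads in CBD+LPS samples and 0, 0 and 1 read in THC+LPS samples. The groups did not overlap, and again the gap between them was a single read. The log2 difference was 1.70 ± 0.48 (SE; 95% interval 0.70 to 2.71; limma adjusted p = 1). The ratio of the summed reads, 8 against 1, was 7.38 with an exact interval of 0.989 to 327 that covers counting error only. The log2 difference was 1.49 without samples 26 and 27, no longer a call, and the call was also lost when any of samples 26, 27, 32 and 33 alone was left out (1.52 to 1.67). miR-1188-3p, its 3p strand, had 3, 0 and 1 read with CBD+LPS and none with THC+LPS (log2 difference 1.09, interval -0.07 to 2.25). Against LPS alone, whose samples both groups share as controls, mir-1188 differed by -0.45 (limma adjusted p = 1) after CBD and by -2.16 (limma adjusted p = 0.414) after THC, a call by the 1.5-fold rule for THC (0.0734% of features were called lower there). Mean levels were 4.79 CPM with LPS alone, 3.26 CPM after CBD and 0.382 CPM after THC.

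Few of the features at 0.05 or less before adjustment were abundant. Of the 36, 25 had fewer than 100 reads in all 18 samples together (69.4%, against 51.5% of all features tested), and only 3 had a mean of at least 100 CPM. All 36 had the same sign without samples 26 and 27, and 8 of them then still stood at 0.05 or less. That refit reused samples on which the 36 were picked, so the kept sign adds no independent support.

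**Figure D2:**
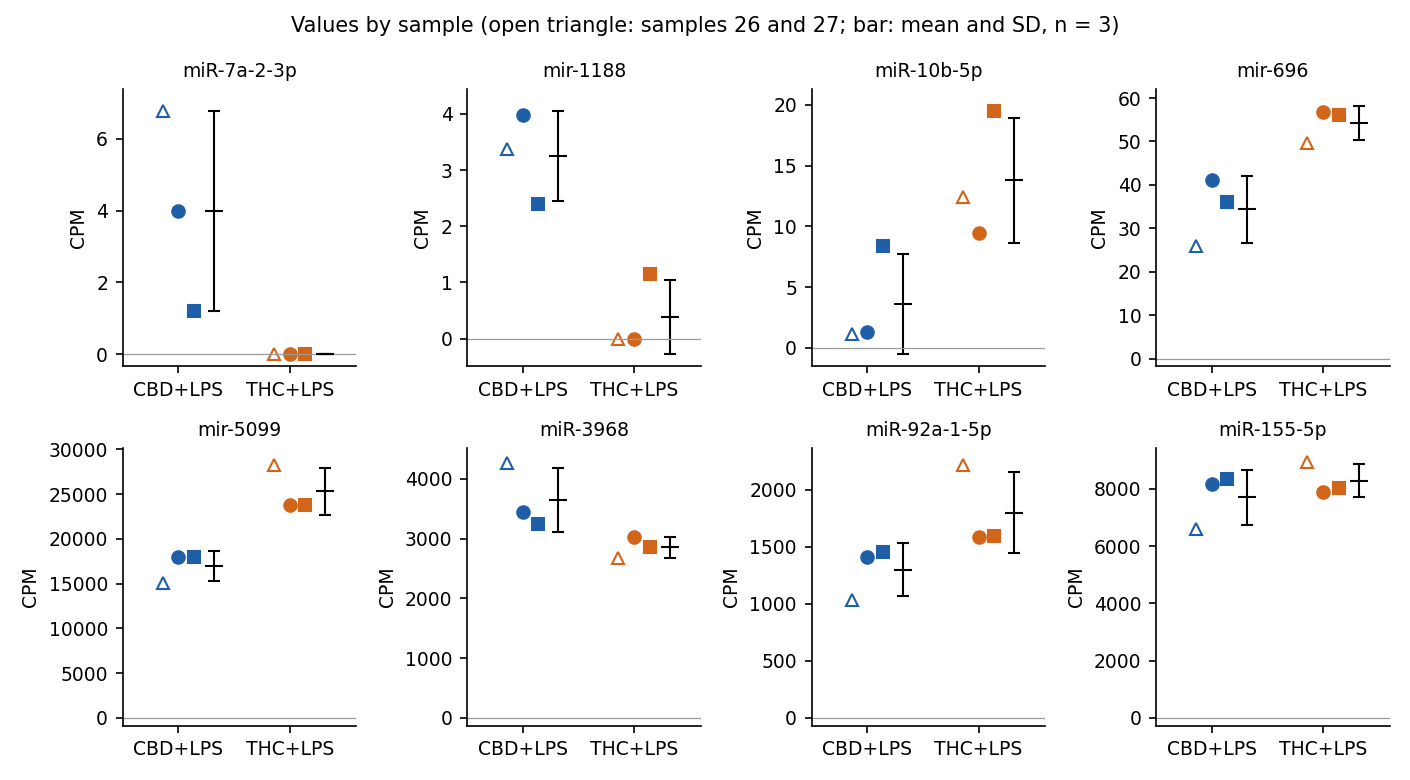
CPM in each of the 3 CBD+LPS samples (blue) and the 3 THC+LPS samples (orange) for 8 features, with the mean and SD of each group (n = 3) as a black bar. Open triangles are samples 26 and 27. In the first 7 panels the groups do not overlap, while miR-155-5p overlaps. In mir-5099, miR-3968 and miR-92a-1-5p samples 26 and 27 lie farthest apart.

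Among features with a mean of at least 100 CPM over the 6 samples, the 5 with the smallest p were mir-5099, miR-3968, miR-92a-1-5p, miR-5099 and mir-92a-2, and none was called. mir-5099, a hairpin with no well-established function, measured 15073, 17917 and 17992 CPM in the CBD+LPS samples and 28302, 23783 and 23800 CPM in the THC+LPS samples. All CBD+LPS samples lay below all THC+LPS samples, with means of 16994 ± 1664 and 25295 ± 2604 CPM (SD, n = 3). The log2 difference was -0.57 ± 0.19 (SE; 95% interval -0.97 to -0.18; limma adjusted p = 1), a ratio of 0.672. It was -0.41 when samples 26 and 27 were left out. The level was 23087 ± 1517 CPM with LPS alone, between the means of the compared groups. The mature miR-5099 lay in the same direction, at 583, 737 and 701 CPM against 1606, 877 and 813 CPM (log2 difference -0.64, interval -1.29 to 0.00). That difference was -0.23 without samples 26 and 27.

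miR-3968 measured 4259, 3447 and 3243 CPM in the CBD+LPS samples and 2679, 3027 and 2859 CPM in the THC+LPS samples. It was higher in every CBD+LPS sample, by 0.35 ± 0.15 on the log2 scale (SE; interval 0.02 to 0.67; limma adjusted p = 1). The largest gap was between samples 26 and 27, and without them the difference was 0.18.

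Of these 5 features, 2 come from the miR-17-92 cluster and its paralog on the X chromosome, which carry growth-promoting miRNAs. miR-92a-1-5p, the less abundant strand of mir-92a-1, measured 1036, 1411 and 1454 CPM in the CBD+LPS samples and 2214, 1587 and 1599 CPM in the THC+LPS samples (log2 difference -0.47 ± 0.21, interval -0.91 to -0.02, limma adjusted p = 1). The difference was -0.15 without samples 26 and 27. The mir-92a-2 hairpin measured 238, 185 and 234 CPM against 336, 275 and 262 CPM (log2 difference -0.41, interval -0.83 to 0.01). The dominant product of both hairpins, miR-92a-3p, was the most abundant mature miRNA of the cells. It measured 142621, 112839 and 123485 CPM after CBD and 145024, 120584 and 120779 CPM after THC, and the log2 difference was -0.03 with an interval of -0.37 to 0.31. The list for the cluster and its paralogs holds miR-92a-3p but neither miR-92a-1-5p nor mir-92a-2. Of its 16 tested miRNAs none was called (0.147% of all features were), and 14 had an interval within 2-fold. Their median difference was -0.08, and 0.03 with reference miRNA scaling, which sets the levels by miR-191-5p and miR-103-3p.

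Of the 31 features that the study's table reports as changed across treatments, none was called between CBD+LPS and THC+LPS (0.147% of all features were). That table was chosen on these samples. In 3 of the 31 the groups did not overlap, all 3 lower with CBD+LPS: miR-10b-5p, mir-696 and mir-155. Of all 1363 features, 3.82% did not overlap in that direction and 2.71% in the other, so 3 of 31 is not read as a result about that table. miR-10b-5p, a miRNA of the HoxD cluster, had 1, 1 and 7 reads with CBD+LPS and 7, 8 and 17 reads with THC+LPS. In CPM the highest CBD+LPS sample, 8.40, lay just under the lowest THC+LPS sample, 9.46. The log2 difference was -1.98 ± 0.67 (SE; 95% interval -3.40 to -0.57; limma adjusted p = 1), and -1.65 without samples 26 and 27. Leaving out CBD+LPS sample 38, the one with 7 reads, gave -2.68 (limma adjusted p = 0.725), past the threshold for a call. Mean levels were 20.2 ± 8.56 CPM with LPS alone, 13.8 ± 5.15 with THC+LPS, 3.62 ± 4.14 with CBD+LPS and 2.58 ± 2.27 in Ctrl (SD, n = 3 each). miR-10b-5p differed from LPS alone by -2.46 (limma adjusted p = 0.849) after CBD and by -0.48 (adjusted p = 1) after THC, comparisons that share the LPS samples. The difference after CBD was a call by the 1.5-fold rule, and that after THC was not. From its own analysis of these same libraries, the study reports miR-10b-5p as significantly lower with CBD+LPS than with LPS alone. That report is therefore no independent support.

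The mir-696 hairpin measured 25.9, 41.2 and 36 CPM in the CBD+LPS samples and 49.8, 56.7 and 56.2 CPM in the THC+LPS samples. Every CBD+LPS sample was lower (log2 difference -0.66 ± 0.26, interval -1.22 to -0.11, limma adjusted p = 1), and the difference was -0.54 without samples 26 and 27. It was also lower after CBD than after THC without LPS, by -0.88, which was a call there. Averaged over cells with and without LPS, the difference was -0.77 ± 0.19 (SE; limma adjusted p = 0.13), a call by the 1.5-fold rule.

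No miRNA of TLR and NF-κB signalling was called between the groups. Of 25 features on this list, 0 were called (0.147% of all features were), 5 values lay above 0 and 20 below, and the median difference was -0.09, against -0.02 for all features, but 0.02 against 0.08 with reference miRNA scaling. The median was 0.00 without samples 26 and 27. The 95% interval lay within 2-fold for 17 of the 25 and within 1.5-fold for 4. miR-155-5p, which promotes the inflammatory response, measured 6580, 8182 and 8333 CPM in the CBD+LPS samples and 8934, 7901 and 8013 CPM in the THC+LPS samples. The groups overlapped, and the log2 difference was -0.11 with an interval of -0.58 to 0.35. Both groups were far above the Ctrl mean of 922 ± 325 CPM (SD, n = 3), by 3.12 and 3.23 on the log2 scale (limma adjusted p = 4.9e-08 and 3.7e-08), and near the LPS mean of 8921 ± 662 CPM. By quantitative PCR against LPS alone, the study reports lower miR-146a after either cannabinoid. By the same assay it reports lower miR-155-5p after CBD and no significant effect of THC on miR-155-5p. miR-155-3p, its partner strand, differed by 0.17 (interval -0.49 to 0.82). The mir-155 hairpin measured 424, 477 and 506 CPM in the CBD+LPS samples and 627, 556 and 537 CPM in the THC+LPS samples. Those groups did not overlap, but the difference of -0.29 (interval -0.83 to 0.25) was within the spread, and it was -0.15 without samples 26 and 27.

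**Figure D3:**
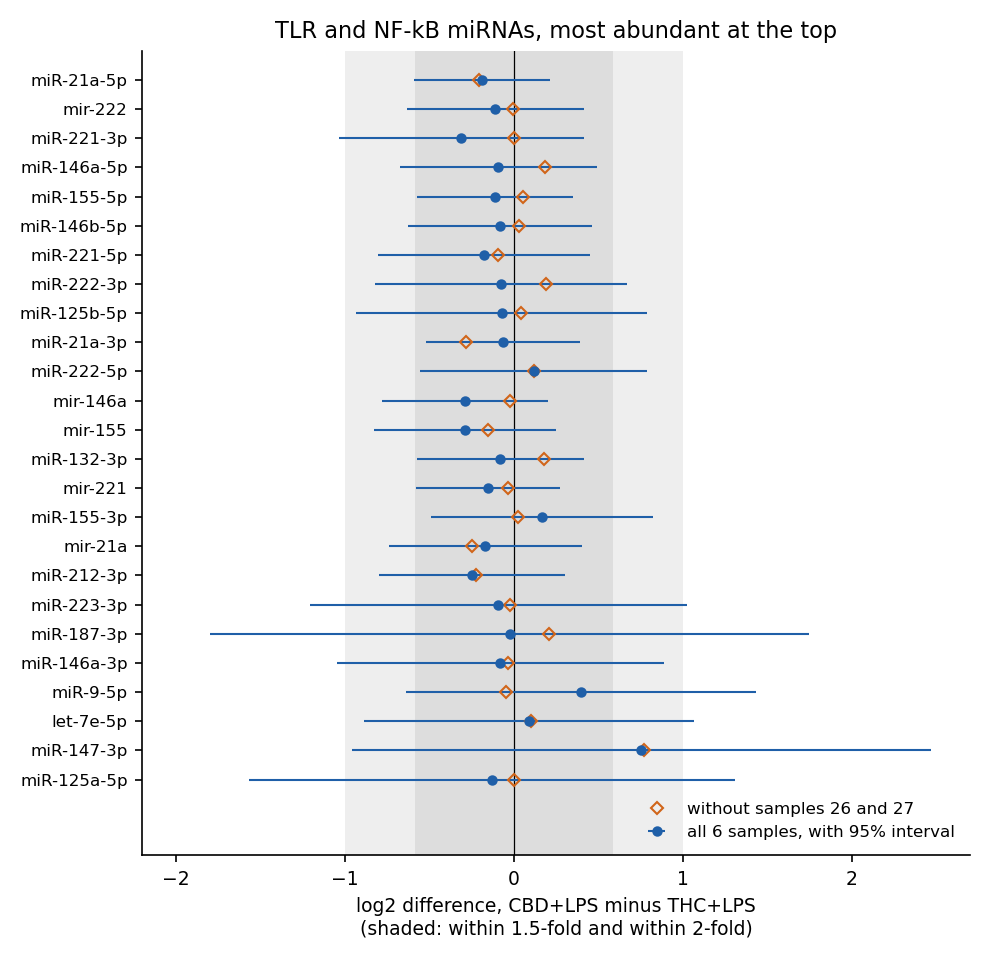
Log2 differences, CBD+LPS minus THC+LPS, of the 25 TLR and NF-κB features, ordered by their mean level with THC+LPS. Blue points carry 95% intervals from all 6 samples, orange diamonds leave out samples 26 and 27, and the shaded bands mark 1.5-fold and 2-fold. All 25 intervals include 0.

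The feedback miRNAs that restrain TLR signalling were not called either. miR-146a-5p and miR-146b-5p, which share a seed and target IRAK1 and TRAF6, differed by -0.09 (interval -0.68 to 0.49) and -0.08 (interval -0.63 to 0.46). miR-146a-5p was 7510 CPM in sample 26, below the 10413 to 12680 CPM of the other 5 samples. miR-21a-5p, which limits the translation of PDCD4, measured 30648, 35188 and 36785 CPM in the CBD+LPS samples and 33957, 41491 and 41614 CPM in the THC+LPS samples, a log2 difference of -0.19 (interval -0.59 to 0.21). miR-221-3p and miR-222-3p, clustered miRNAs that share a seed, differed by -0.31 (interval -1.03 to 0.42) and -0.08 (interval -0.82 to 0.67). miR-221-3p differed by 0.00 without samples 26 and 27. Wider intervals belonged to the scarcer members: miR-147-3p, at a mean of 9.76 ± 5.36 CPM in the CBD+LPS samples and 5.07 ± 2.44 CPM in the THC+LPS samples, differed by 0.75 with an interval of -0.96 to 2.47.

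The miR-34 and miR-449 miRNAs belong to the p53 and cell-cycle response, and miR-34a-5p and miR-449a-5p share the seed GGCAGUG. Of 16 such features 12 could be tested, and none was called. As 0.147% of all features were called, a list of this size would rarely hold a call. The median difference was 0.03 (0.09 with reference miRNA scaling), and 6 values lay on each side of 0. miR-34a-5p measured 38.3, 86.3 and 103 CPM in the CBD+LPS samples and 67.5, 95.7 and 77.9 CPM in the THC+LPS samples, a log2 difference of -0.18 (interval -0.99 to 0.63). miR-449a-5p had 6, 0 and 4 reads with CBD+LPS and 0, 2 and 0 reads with THC+LPS, and the groups overlapped (log2 difference 1.25, interval -0.24 to 2.73). Leaving out CBD+LPS sample 32, which had no read of it, brought the difference to 2.16 (limma adjusted p = 1), past the threshold for a call, whereas without samples 26 and 27 it was 0.39. With 11 of the 12 intervals reaching beyond 2-fold, the data could not place this group within 2-fold. The lists for let-7 (9 tested), miR-29 (11), miR-30 (9), miR-181 (13) and p53-linked miRNAs (9) also held no called feature, with medians from -0.18 to -0.03 that ran from -0.07 to 0.07 with reference miRNA scaling. All 9 miR-30 features had an interval within 2-fold.

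How small a difference could be seen depended on the level. Over all features, 84 of 1363 intervals (6.16%) lay within 1.5-fold and 296 (21.7%) within 2-fold. At a mean of 1000 CPM or more, 83 of 93 intervals (89.2%) lay within 2-fold and 48 (51.6%) within 1.5-fold. Between 100 and 1000 CPM 111 of 154 (72.1%) lay within 2-fold, between 10 and 100 CPM 100 of 346 (28.9%), and under 10 CPM 2 of 770 (0.26%). Below 10 CPM, where 56.5% of features lay, differences of 2-fold between the cannabinoids were therefore mostly not detectable at this depth.

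**Figure D4:**
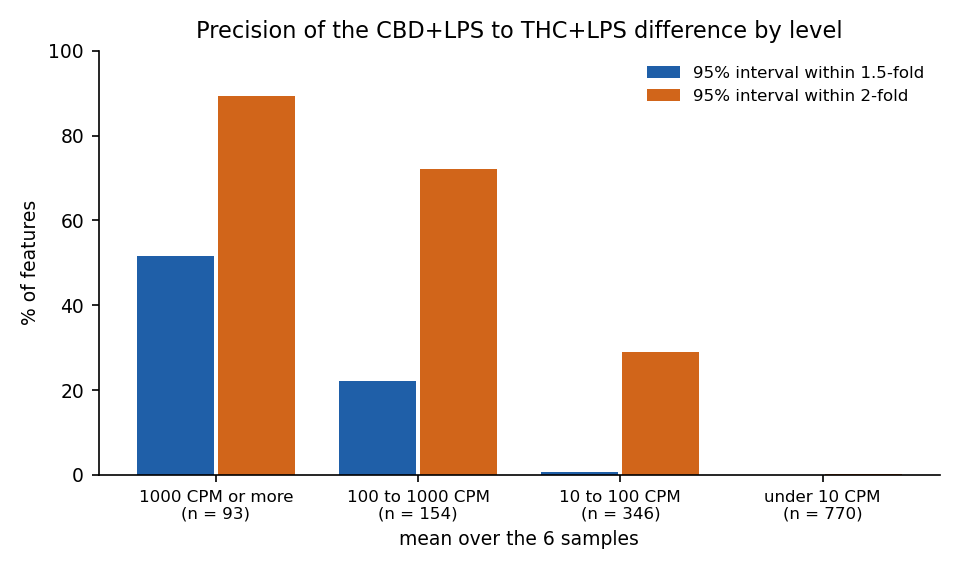
Share of features (y axis, %) whose 95% interval for the difference between CBD+LPS and THC+LPS lay within 1.5-fold (blue) or within 2-fold (orange), by mean level over the 6 samples. The share within 2-fold falls from 89.2% at 1000 CPM or more to 0.26% under 10 CPM.

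Summing the mature miRNAs by seed gave no abundant family that differed. Of 721 mature miRNAs tested, 604 matched a RefSeq sequence and fell into 516 seed families (miRNAs without a match, such as miR-30d-5p, were left out), whose summed CPM was tested in the same model. The 20 most abundant families held 87.8% of the matched CPM, and their differences ranged from -0.27 to 0.10 on the log2 scale. None of these 20 was called, and 19 had an interval within 2-fold and 13 within 1.5-fold. The family of seed AUUGCAC (miR-25-3p, miR-32-5p, miR-92a-3p and miR-92b-3p) differed by -0.03 with an interval of -0.37 to 0.31. The let-7 family, seed GAGGUAG, with 9 tested members that restrain proliferation genes, differed by -0.11 with an interval of -0.48 to 0.27. The exception was the miR-181 family, seed ACAUUCA, which measured 17877, 53238 and 56693 CPM in the CBD+LPS samples and 22045, 52086 and 55987 CPM in the THC+LPS samples. Samples 26 and 27 held less than the other 4 samples in both groups, and the interval ran from -1.24 to 1.08 around a difference of -0.08. Over all 516 families 1 was called, that of miR-7a-2-3p alone, and 11 stood at 0.05 or less before adjustment.

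In cells without LPS the same contrast, CBD minus THC, called 45 features (3.3%), 18 higher (1.32%) and 27 lower (1.98%), and 7 features passed an adjusted p of 0.1 (0.514%). The share of reads from mir-6236, mir-6243 and mir-6240 moved with that contrast, at 0.151% to 1.67% after CBD alone and 1.80% to 4.55% after THC alone. With the summed level of these hairpins as a covariate, 19 features were called without LPS, 16 higher and 3 lower. The 3 hairpins themselves changed their CBD to THC difference with LPS by 3.04 to 3.77 on the log2 scale, none of them a call. The change of the CBD to THC difference with LPS was tested directly as an interaction: 14 features were called (1.03%), 6 upward (0.44%) and 8 downward (0.587%), 139 stood at 0.05 or less before adjustment (10.2%), and 1, mir-3096b, reached an adjusted p of 0.1 (0.0734%). Of the 14, 4 were still called without samples 26 and 27 (mir-3096b, mir-3096a, the let-7b hairpin and miR-6384). With the hairpin covariate 3 were (mir-3096b, the let-7b hairpin and miR-6384). The let-7b hairpin changed by 2.53 on 107 reads in all 18 samples, whereas the mature let-7b-5p changed by -0.61, not a call. The mir-3096b hairpin measured 3536, 5434 and 4912 CPM after CBD alone and 1674, 2099 and 1999 CPM after THC alone. After LPS it measured 2286, 2302 and 2432 CPM with CBD and 2440, 2226 and 2325 CPM with THC. The groups were fully apart without LPS, at means of 4628 ± 980 and 1924 ± 222 CPM (SD, n = 3), and overlapped with it. The log2 difference was 1.25 ± 0.17 without LPS and 0.01 ± 0.17 with LPS, a change of -1.24 ± 0.23 (SE; limma adjusted p = 0.0779). With reference miRNA scaling the change was -0.86, while the median change of all features moved from 0.04 to 0.36. Leaving out samples 26 and 27 gave -1.19, and no feature then reached an adjusted p of 0.1, nor when any single CBD, THC, CBD+LPS or THC+LPS sample other than number 24 was left out. With the hairpin covariate the change was -1.03, still a call, and no feature reached an adjusted p of 0.1. In samples 28 to 39 alone, 86 features did. Untreated cells held 2286 ± 93 CPM of mir-3096b. Its near-identical neighbour in name, mir-3096a, gave similar values (change -1.08, limma adjusted p = 0.445), and reads of these hairpins may be split between them.

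**Figure D5:**
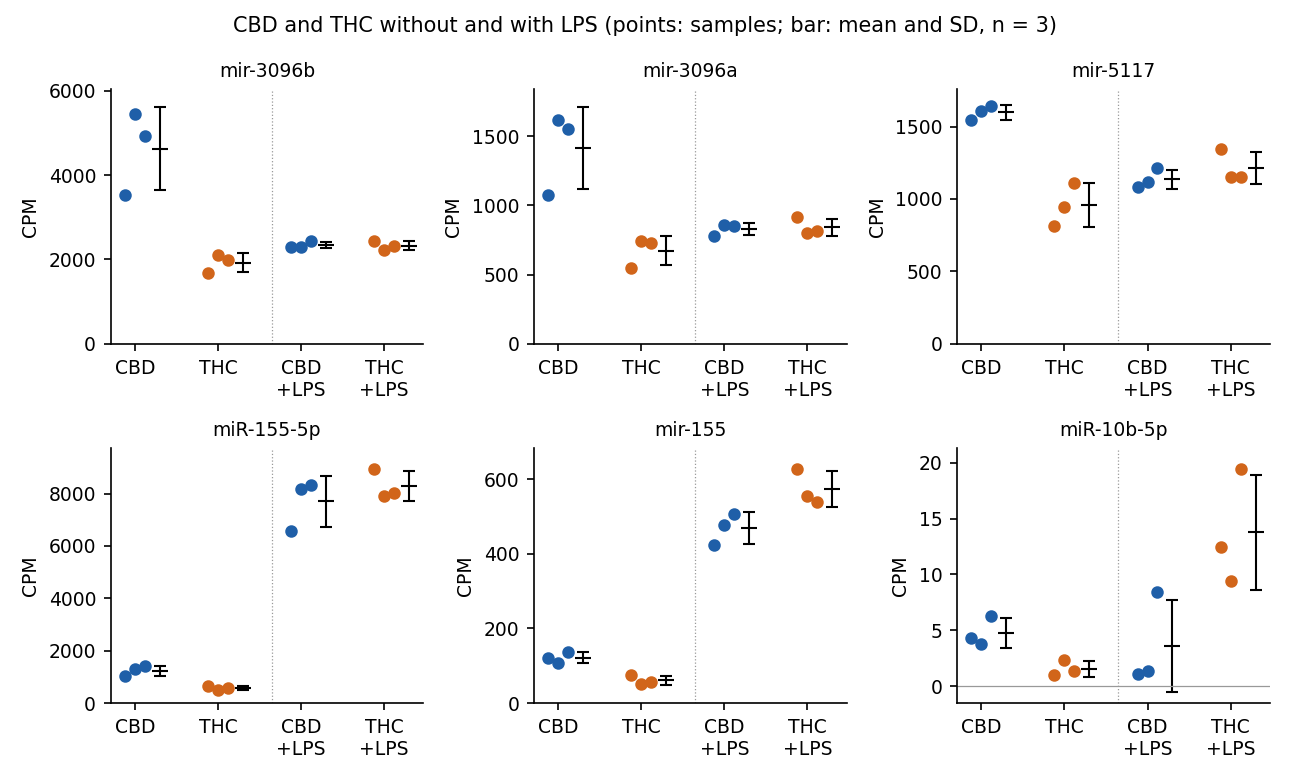
CPM of 6 features with a called change of the CBD to THC difference, in cells given CBD or THC alone (left of the dotted line) and with LPS (right). Points are samples, and black bars are means and SD (n = 3). For mir-3096b, mir-3096a, mir-5117 and miR-155-5p the CBD samples lie above the THC samples without LPS and the groups overlap with LPS. For miR-10b-5p the order turns.

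Of the 3 products of the miR-155 gene, miR-155-5p and the mir-155 hairpin had a called change and miR-155-3p did not. Without LPS miR-155-5p measured 1024, 1292 and 1407 CPM after CBD and 659, 499 and 596 CPM after THC, with every CBD sample above every THC sample and a log2 difference of 1.08 (limma adjusted p = 0.0355). With LPS the difference was -0.11, and the change of -1.19 ± 0.31 was a call by the 1.5-fold rule (SE; limma adjusted p = 0.445). The mir-155 hairpin changed by -1.29 ± 0.36 (SE; limma adjusted p = 0.445), and the value for miR-155-3p was -0.16. Neither call of miR-155 held without samples 26 and 27, where the values were -1.03 for miR-155-5p and -1.16 for the hairpin, or with the hairpin covariate, where they were -0.68 and -0.95. miR-10b-5p changed by -3.17 ± 0.95 (SE; limma adjusted p = 0.463), from 1.18 higher after CBD without LPS to 1.98 lower with it, on 110 reads in all 18 samples, and was no call without samples 26 and 27 (-2.83) or with the covariate (-2.38). The mir-5117 hairpin went from 0.75 without LPS to -0.10 with it (limma interaction, adjusted p = 0.445), a change that was -0.74 without samples 26 and 27 and -0.77 with the covariate, neither a call. The other 8 called changes rested on 10 to 124 reads in all 18 samples.

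Averaged over cells with and without LPS, CBD differed from THC by the 1.5-fold rule in 15 features (1.1%), 10 higher (0.734%) and 5 lower (0.367%), and 1 of them, mir-3096b, reached an adjusted p of 0.1 (limma adjusted p = 0.0697, 0.0734% of features), with a difference of 1.25 without LPS and 0.01 with it. Of the 15, miR-7a-2-3p alone was also called in the cells with LPS, at 2.14 with LPS and 1.08 without. mir-181b-1 was another of the 15 (limma adjusted p = 0.13), but with LPS it measured 424, 165 and 176 CPM against 167, 161 and 155 CPM, with sample 26 far above the other 5. The difference was 0.52 with LPS, and 0.11 without samples 26 and 27. With reference miRNA scaling 8 features were called on average, 3 higher and 5 lower.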

How the data were processed

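Small RNA libraries from 18 BV-2 samples (6 groups, 3 each) were made with TruSeq Small RNA, pooled, and sequenced as a single pool on a HiSeq, and the authors aligned reads to miRBase mouse sequences with BWA, keeping at most 10 mappings per read. The miRBase release aligned to, the BWA version and any genome build used for the alignment are not given in the sources used here. The deposited signal values are normalized read counts: in each file they are whole multiples of the smallest value above 0 (100% of values, tolerance 0.001). Dividing by that value gave reads, and edgeR's TMM factors computed from those reads returned the deposited scale, so the authors' values are CPM on TMM-scaled library sizes. A read that maps to several miRNAs may be split or counted more than once, and a hairpin shares reads with its arms.

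The 1363 features reaching 10 reads in all samples together were fitted with limma 3.58.1 (R 4.3.3, mean-variance trend) on log2(CPM + 1), with all 6 groups in the model. Differences are on that scale, which understates changes of low features. Tests were 2-sided. A call needed a p of 0.005 or less before adjustment and a 1.5-fold difference or more, after the study's criterion, and adjusted p-values are Benjamini-Hochberg over 1363 features. edgeR 4.0.16 and DESeq2 1.42.0 on the recovered reads were alternatives, as were other scalings, pseudocounts, filters and samples left out. Leaving out samples 26 and 27, the block of 3 sets and summing by seed were chosen after seeing the data. The pipeline was tested on simulated data. Total reads, detected features and hairpin shares were compared between the groups with exact permutation tests, whose p was 0.5 to 1 (the smallest possible is 0.1). Intervals from read counts are exact, at 95%, and cover counting error only. Within CBD+LPS and THC+LPS, no pair of samples agreed within sampling noise.

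Text names follow these rules: called features, the 5 smallest p at 100 CPM or more, abundant miRNAs, the TLR/NF-κB and miR-34 and miR-449 lists, features of the study's table whose groups did not overlap, and whatever passed an adjusted p of 0.1 in the averaged or interaction contrast. Some abundant and reference miRNAs are given only within seed families. mir-3094, mir-181c, mir-181b-1, mir-5117, mir-3096a and the miR-7a and miR-1188 relatives were named after their values were seen. The groups, lists and rules were chosen with earlier results of these data known. Sequences come from RefSeq (GRCm38.p6) and gene overlaps from GENCODE.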

Additional observations from a re-analysis of the deposited data

Results flagged for a closer look

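The difference between CBD and THC in the mir-3096b hairpin changed with LPS, by -1.24 on the log2 scale (limma interaction, adjusted p = 0.0779). It was the single feature whose change passed an adjusted p of 0.1. The CBD samples were above the THC samples in 3 of 3 without LPS, and the groups overlapped with LPS. The share of all reads taken by mir-3096a and mir-3096b was 0.520% to 0.693% after CBD alone and 0.276% to 0.351% in the 6 samples with CBD+LPS or THC+LPS. No group had more than 3 samples, so no result was flagged here by a search for outlying samples. Read counts were compared between samples within CBD+LPS and within THC+LPS, and the lowest-numbered sample of each group stood apart. The refits without those samples were chosen after seeing the data.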

How the results depend on the processing

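No number in the labels is shared between groups, but the numbers run in 3 sets of 6 with every group once. Between samples 26 and 27, 32 and 33, and 38 and 39, deviations from the group means correlated by -0.04, 0.00 and -0.09 across 1363 features. Between the CBD and THC samples of a set they correlated by 0.26, 0.06 and 0.21. Read noise lowers such correlations, and 56.5% of features lay under 10 CPM. They therefore could not decide whether samples of a set deviate together. The main model did not take the sets as pairs. With the sets as a replicate block, chosen after seeing the data, 2 features were called between CBD+LPS and THC+LPS and 17 on average over both states. The intervals within 2-fold rose from 296 to 360. The changes with LPS at an adjusted p of 0.1 rose from 1 to 3 (mir-3096a, mir-3096b and mir-5117), with mir-3096b at a limma adjusted p of 0.0106.

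Between CBD+LPS and THC+LPS no feature reached an adjusted p of 0.1 under any alternative run. The count of called features, 2, was 0 with filterByExpr, with DESeq2 and with adjusted p as the threshold, 1 with mature miRNAs alone, with hairpins alone, with edgeR's quasi-likelihood test, with the compared groups alone, with miRNAs summed by shared seed and without samples 26 and 27 (lower there), and 4 with a composition covariate. With filterByExpr neither called feature was among those tested, and each run on mature miRNAs or hairpins alone tested only 1 of them. Those lower counts therefore do not show that a call was lost. The count was 0 without sample 26, 1 without sample 27, 32 or 33, and 3 without sample 38 or 39. The single call was mir-6366 (lower) without sample 27, miR-449a-5p without sample 32 and miR-182-3p without sample 33. With the compared groups alone it was mir-6404. Neither miR-7a-2-3p nor mir-1188 was called without sample 27, 32 or 33, or with the compared groups alone. The single call was miR-7a-2-3p with mature miRNAs alone and with edgeR, and mir-1188 with hairpins alone. Summed by shared seed, it was the family of miR-7a-2-3p. The number of intervals within 2-fold, 296, was 543 with features of at least 1 read and 75 with hairpins alone, as other features were tested, and 209 to 248 when a sample was left out. The 15 features called on average over both states became 8 with reference miRNA scaling, 6 with mature miRNAs alone, 1 with adjusted p as the threshold, 9 with 2-fold as the threshold, 115 in samples 28 to 39 alone, and 13 to 35 with a sample left out, the counts over 20 being 35 without sample 24 and 23 without sample 27. The 1 feature whose change with LPS reached an adjusted p of 0.1 became 0 with RLE scaling, reference miRNA scaling, features of at least 1 read, mature miRNAs or hairpins alone, no mean-variance trend, edgeR, the compared groups alone, the composition covariate and without samples 26 and 27. It became 3 with filterByExpr, DESeq2 and a covariate for samples 22 to 27, 86 in samples 28 to 39 alone, and 0 to 5 with a sample left out: 5 without sample 24 and 0 without any other sample of the 4 groups. The cause of the larger counts in samples 28 to 39 was not tested.

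miR-7a-2-3p remained a call under 13 of 22 alternatives and mir-1188 under 12 of 22, with the same sign in all of them. The 9 named features farther than 2 SE from 0 kept their sign in all 205 of their alternative values. All of these features were picked on the same samples, so a kept sign adds no independent support. Over all 57 named features, 131 of 1296 alternative values changed sign. With 3 samples a group and the depth of these libraries, nearly all differences under 10 CPM could not be resolved to 2-fold.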
